A study of Homo sapiens with 2 samples.

Results

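The numbered ZNF genes examined here are the protein-coding genes with a symbol of ZNF and a number, with or without a closing letter, chosen by their level: each reached 5 FPKM (reads scaled to gene length and library size) in at least 1 of 2 libraries. There were 220 such genes among the 485 numbered protein-coding ZNF genes listed. Because the level chose them, 65 entered through the FZD2 shRNA library alone, 29 through the control library alone and 126 through both, so a member near the limit in 1 library tends to differ. Just inside the limit were ZNF592 (4.07 FPKM in the FZD2 shRNA library against 5.01 in the control), ZNF619 (5.02 against 1.1), ZNF419 (4.58 against 5.05) and ZNF473 (3.72 against 5.07). Just outside were ZNF680 (2.27 against 4.98), ZNF517 (4.97 against 2.73), ZNF623 (2.95 against 4.97) and ZNF318 (4.96 against 3.10).

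The cells were SNU449, an established human liver cancer line, 7 days after lentivirus carrying a short hairpin RNA (shRNA) against FZD2, a frizzled receptor for Wnt ligands, or a control shRNA. Whether cultures were pooled, and which hairpin was used, is not stated in the labels. The growth protocol calls the cells prostate and the series' design text spells the line SNU499. Each group held 1 library, so no value has a replicate error, no difference between the shRNAs was tested, and "higher" and "lower" describe these libraries only.

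FZD2, a gene with shared reads as defined below, stood at 15.76 FPKM in the library labelled for its shRNA against 59.45 in the control. The libraries held 8234592 and 8436870 expected counts. Of 9 liver markers, 4 reached 5 FPKM: the keratin genes KRT8 (228.95 against 172.66 FPKM) and KRT18 (401.04 against 320.79) and the fibrinogen genes FGB (105.3 against 91.67) and FGG (123.36 against 100.72). ALB, which encodes albumin, AFP, APOA1 and SERPINA1 stayed under 1 FPKM in both libraries. Of 10 markers of other cells, 3 reached 5 FPKM: the collagen genes COL1A1 (119.9 against 100.13) and COL1A2 (198.48 against 306.36), and LYZ, which encodes lysozyme (71.47 against 12.31, log2 ratio 2.44, shared reads). PECAM1, an endothelial gene, was under the limit but also higher (2.33 against 0.41, 1.24, shared reads). PTPRC, also under the limit, was at 1.61 against 1.56 (0.03, shared reads). EPCAM was at 0.28 against 0.20, PDGFRB at 0.13 against 0.20 and CDH5 at 0.03 against 0. Whether RNA of other cells has a part in the ZNF values was not tested.

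ZNF genes encode proteins with C2H2 zinc fingers, short loops that hold a zinc ion between 2 cysteines and 2 histidines and usually read DNA as an array. Many carry a KRAB box, which binds the corepressor TRIM28 and through it SETDB1, HP1 proteins and histone deacetylases, and much of this class silences retrotransposons. The family grew by tandem duplication, so neighbouring genes can be nearly the same in sequence. Others have no KRAB box and act as activators, as parts of chromatin complexes or on RNA.

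The likeness bears on every value below, because a read that fits several genes has to be divided among them. A gene is said here to have shared reads when its expected count, the estimated number of its reads, lay more than 0.001 from a whole number in at least 1 library. By that measure 147 members had shared reads and 73 did not. How large the shared portion was could not be read from the files. To show the likeness, 84 bases of coding sequence, a finger and its linker, are printed 5′ to 3′ for 3 pairs of members with shared reads and for 3 members without them. Sequences come from GENCODE release 29 transcripts and positions are on GRCh38. Capitals mark bases that differ from the paired member or, for ZNF217, ZNF292 and ZNF358, from the closest finger in any other member.
ZNF587 (chr19:57859640-57859723, plus strand): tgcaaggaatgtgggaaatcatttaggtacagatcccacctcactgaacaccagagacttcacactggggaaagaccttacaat
ZNF417 (chr19:57908967-57909050, minus strand): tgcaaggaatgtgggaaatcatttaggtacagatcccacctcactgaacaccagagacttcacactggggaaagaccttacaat
ZNF33A (chr10:38056039-38056122, plus strand): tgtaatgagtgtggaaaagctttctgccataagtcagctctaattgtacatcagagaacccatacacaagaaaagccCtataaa
ZNF33B (chr10:42592952-42593035, minus strand): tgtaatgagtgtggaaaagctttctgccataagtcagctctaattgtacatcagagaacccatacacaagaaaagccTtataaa
ZNF430 (chr19:21057515-21057598, plus strand): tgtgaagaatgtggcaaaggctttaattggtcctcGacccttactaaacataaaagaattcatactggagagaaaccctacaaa
ZNF431 (chr19:21183423-21183506, plus strand): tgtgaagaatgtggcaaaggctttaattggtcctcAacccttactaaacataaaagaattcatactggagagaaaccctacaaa
ZNF217 (chr20:53582272-53582355, minus strand): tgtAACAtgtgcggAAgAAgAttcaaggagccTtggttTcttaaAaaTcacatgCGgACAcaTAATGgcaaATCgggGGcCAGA
ZNF292 (chr6:87255799-87255882, plus strand): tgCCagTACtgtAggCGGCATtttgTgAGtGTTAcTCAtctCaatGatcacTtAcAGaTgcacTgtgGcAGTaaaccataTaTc
ZNF358 (chr19:7520203-7520286, plus strand): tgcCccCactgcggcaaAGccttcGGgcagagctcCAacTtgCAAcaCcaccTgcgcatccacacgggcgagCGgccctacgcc

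ZNF587 and ZNF417 were the same at all 84 bases of the fingers shown, and the ZNF33A with ZNF33B and ZNF430 with ZNF431 pairs differed at 1 base. The closest fingers to those of ZNF217, ZNF292 and ZNF358 differed at 32 bases (in ZNF219), 36 (in ZNF426) and 16 (in ZNF787). Across 1580 fingers of 141 members with shared reads, the median identity to the closest finger of another member was 83.3%. It was 71.4% across 489 fingers of 65 members without shared reads. A finger within 4 bases of one in another member was found in 34 of the 141 and in 0 of the 65.

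Measured as the log2 ratio of FPKM + 1, FZD2 shRNA over control, 68 of the 220 members (30.9%) were at least 2-fold higher, 11 (5.0%) lower by the same margin and the other 141 within it. The background for these counts is the 8804 protein-coding genes at 5 FPKM or more, of which 12.0% were higher and 8.41% lower. The members' median log2 ratio was 0.45, against -0.08 over all 8804 genes. That median moved with the choice of members: it was 0.094 over the 428 numbered ZNF genes at 1 FPKM or more and 0.00 over all 485. Over the 129 members in which no Alu-like sequence was found, a choice made after seeing the data, it was -0.0073. Levels of all 220 members summed to 2845 FPKM with the FZD2 shRNA and 1913 with the control. The median levels of the 220 were 8.83 and 6.00 FPKM. With both libraries required to reach 5 FPKM, a choice made after seeing the data, 28 of 126 members were higher and 4 lower. The background of 12.0% and 8.41% was not taken under that filter, so it is no measure for this count. A 95% counting interval of the count ratio lay above equality for 124 members and below it for 47, beside 35.3% and 44.8% of the 8804 genes.

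The higher calls lay almost wholly among members with shared reads. Among those members 66 (44.9%) passed 2-fold upward and 3 downward (median 0.90). All 3323 protein-coding genes with shared reads gave 25.3% upward and 4.54% downward (median 0.30). Of the 73 members without shared reads, 2 (2.74%) passed it upward and 8 (11%) downward (median -0.19). The 5481 protein-coding genes without shared reads stood close to that, at 3.94% higher and 10.7% lower, median -0.26. Summed levels were 1965 against 973 FPKM with shared reads and 881 against 940 FPKM without them.

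**Figure D1:**
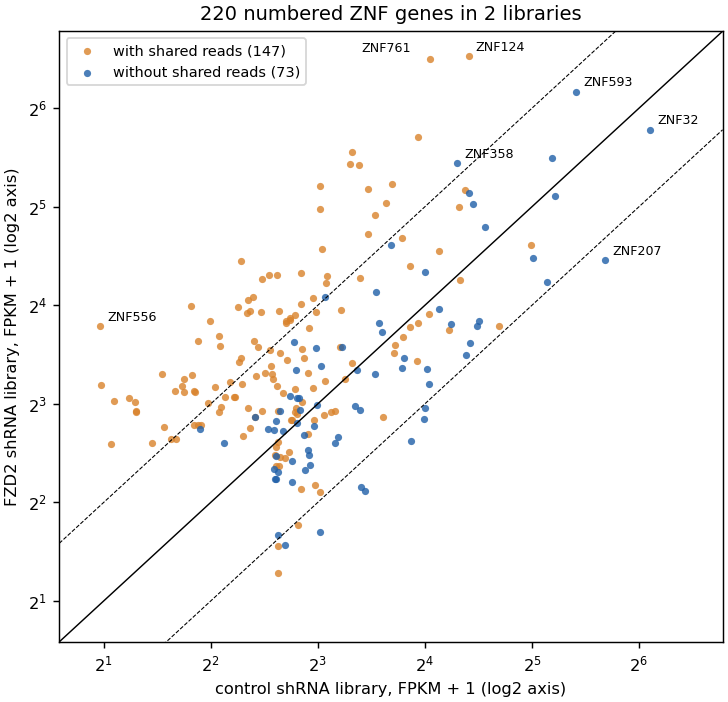
Level of each of the 220 ZNF genes in the control library (x axis) and the FZD2 shRNA library (y axis), both as FPKM + 1 on log2 axes, with equality as a solid line and 2-fold as dashed lines. Of the 68 points above the upper dashed line, 66 are genes with shared reads.

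Among members without shared reads, and with at least 50 expected counts, the lowest ratio was that of ZNF189, with 2.24 FPKM under the FZD2 shRNA against 7.12 in the control (59 and 193 reads, log2 ratio -1.33). ZNF367 was at 3.33 against 9.85 FPKM (-1.33). ZNF217, an oncogene product that works with the CoREST corepressor, was at 3.45 against 9.61 FPKM (-1.25). Its reads numbered 163 and 466, a count log2 ratio of -1.48 with a 95% counting interval of -1.75 to -1.22. For all 3 the counting interval lay below equality, and counting error is the only error the files allow.

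ZNF488, a repressor known from oligodendrocytes, was at 5.14 against 13.63 FPKM (-1.25). ZNF207, also called BuGZ, which binds the spindle checkpoint protein BUB3, was the most abundant of the lower genes at 21.01 against 50.52 FPKM (-1.23, from 391 and 971 reads). ZNF664 was at 6.21 against 14.96 FPKM (-1.15). ZNF45, a KRAB gene, was at 1.97 against 5.48 (-1.13). ZNF330, a nucleolar protein gene, was at 6.78 against 15 (-1.04, or -0.93 in TPM). With a pseudocount of 5 FPKM, ZNF207 alone of these 8 kept a ratio past 2-fold.

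At the other end, 2 members without shared reads passed 2-fold. ZNF358 had 42.45 FPKM under the FZD2 shRNA against 18.72 in the control (702 and 318 reads, 1.14). ZNF292, a large protein with 15 fingers by the pattern used here, was at 16 against 7.37 FPKM (1354 and 641 reads, 1.02). ZNF292 fell short with a pseudocount of 5 FPKM (0.76). The next 6 did not reach 2-fold.

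Of those 6, ZNF444, a SCAN domain factor, was at 23.44 against 11.82 FPKM (0.93). ZNF395, a hypoxia-linked transcription factor, was at 11.34 against 5.85 (0.85), and ZNF827, which brings the NuRD complex to telomeres, at 5.69 against 2.74 (0.84). In TPM these 3 passed 2-fold (1.11, 1.04 and 1.05). ZNF593, whose protein acts in making the large ribosomal subunit, was at 70.99 against 41.69 (0.75), ZNF581 at 34.27 against 20.28 (0.73) and ZNF692 at 16.56 against 10.68 (0.59).

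**Figure D2:**
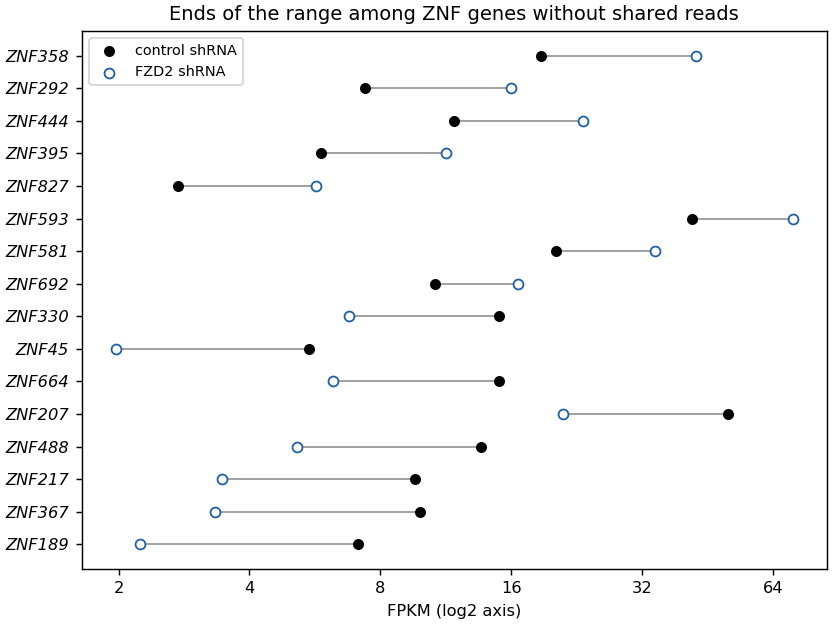
FPKM (x axis, log2) in the control library (filled) and the FZD2 shRNA library (open) for the 8 lowest and 8 highest ZNF genes without shared reads. The lines join both values of a gene, from ZNF189 (2.24 against 7.12 FPKM) at the bottom to ZNF358 (42.45 against 18.72 FPKM) at the top.

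Members with shared reads reached further, and their values are uncertain for that reason. ZNF556 had 12.80 FPKM under the FZD2 shRNA against 0.95 in the control (173.45 and 13.26 expected counts, log2 ratio 2.82). ZNF454 was at 45.90 against 8.96 FPKM (2.24) and ZNF483, a SCAN and KRAB gene, at 36.11 against 7.12 (2.19). ZNF490 was at 14.89 against 2.51 (2.18) and ZNF713 at 20.89 against 3.85 (2.17). ZNF124, a KRAB gene had the highest mean FPKM of the members with shared reads, at 91.44 against 20.24 (2.12). Over all members, ZNF32 (54.05 against 67.84, -0.32) and ZNF593 had higher means, and ZNF580 (43.99 against 35.34, 0.31) also ranked among the 6 most abundant. These 3 had no shared reads.

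ZNF761 was at 89.64 against 15.53 FPKM (2.46), while the ratio of its expected counts (800.81 to 330.57) was 1.31 on the log2 scale (counting interval 1.12 to 1.5). Its listed length per gene was 1099 bases with the FZD2 shRNA and 2501 with the control, and FPKM is divided by that length. ZNF343 passed 2-fold in FPKM (15.85 against 6.73, 1.12) and not in counts (204.80 against 148.40, 0.50), with listed lengths of 1573 and 2590 bases. ZNF652 passed 2-fold on neither scale, but its ratio was larger in counts than in FPKM, at 7.88 against 5.91 FPKM (0.36) with counts of 635.19 and 346.10 (0.91) and lengths of 9617 and 6820. In all, 14 of the 220 members had listed lengths more than 10% apart, and 143 had lengths within 1%. On counts alone, 79 members were at least 2-fold higher and 14 lower.

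Of the 6 lowest members with shared reads, 3 passed 2-fold. ZNF354A was at 1.44 against 5.17 FPKM (-1.34), ZNF256 at 1.95 against 5.18 (-1.07) and ZNF107 at 2.41 against 6.04 (-1.05). ZNF85 (3.29 against 7.13, -0.92), ZNF706 (12.82 against 24.89, -0.91) and ZNF700 (3.53 against 6.85, -0.79) did not reach 2-fold. Of these 6, ZNF706 has a single finger by the pattern and no KRAB match, and the other 5 match the KRAB profile.

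A KRAB box was found in 131 of the 217 members whose transcripts could be matched. Of the KRAB members 56 (42.7%) were higher and 5 (3.82%) lower (median 0.87). The 86 members with no KRAB match held 9 higher (10.5%) and 6 lower (6.98%) ones (median 0.02). Median control levels were 5.47 FPKM for KRAB members, near the 5 FPKM limit, and 7.44 for the 86 others. KRAB members that entered through the FZD2 shRNA library alone favour higher calls. The part of that choice in these counts was not tested, and counts with both libraries at 5 FPKM are given below. Of all 8804 genes 12.0% were higher and 8.41% lower, and of those with shared reads 25.3% and 4.54%. Shared reads went with the KRAB box, in 118 of the 131 KRAB members and 26 of the 86 others. Split by shared reads, the medians were 0.94 (118 KRAB members) and 0.37 (26 others) with shared reads, and -0.19 (13 KRAB members) and -0.21 (60 others) without. All 56 higher KRAB members had shared reads, and of the 13 KRAB members without shared reads 0 were higher and 2 lower, ZNF189 and ZNF45. A SCAN domain, a pairing module, was found in 12 members, of which 3 were higher (ZNF445, ZNF500 and ZNF483, all with shared reads) and 0 lower.

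**Figure D3:**
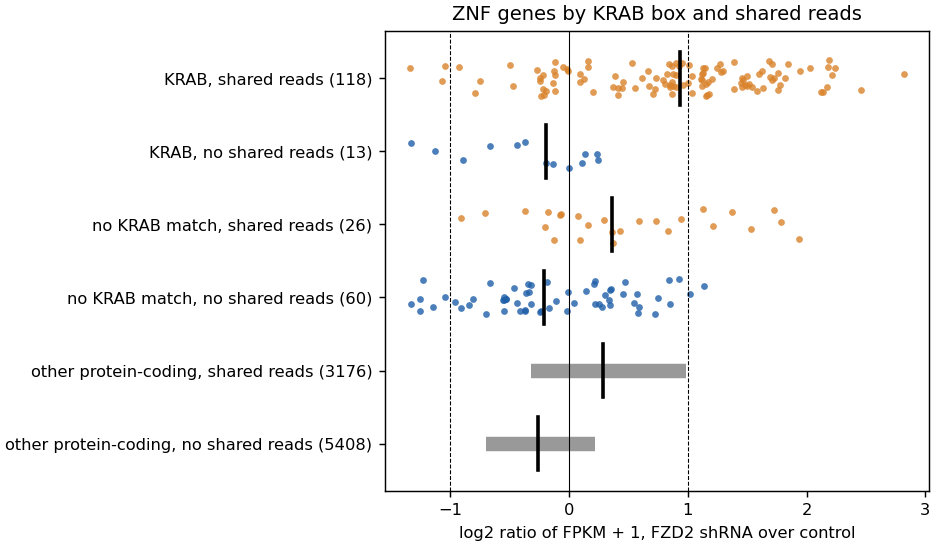
Log2 ratio of FPKM + 1 (x axis) for each ZNF gene, by KRAB box and shared reads, with the median as a black bar, beside the middle 50% (grey) and median of the other protein-coding genes. KRAB genes with shared reads have a median of 0.94 and KRAB genes without them a median of -0.19.

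By role, the list of DNA-binding transcription factors had 9 members, of which 0 were past 2-fold in either direction. ZNF143, an activator of many housekeeping promoters, was at 2.18 against 5.19 FPKM (-0.96, or -1.14 in CPM, counts scaled to library size). ZNF24, a SCAN domain repressor of VEGFA, was at 5.09 against 7.93 (-0.55), ZNF335, of a histone methyltransferase complex, at 3.63 against 5.76 (-0.55) and ZNF281 at 19.27 against 14.97 (0.34). The median was -0.12, and 2 of the 9 had shared reads. Counts in this and the following role lists stand beside the background of all 8804 genes. There 12.0% were higher and 8.41% lower, or 25.3% and 4.54% among those with shared reads. The lists are small, and nothing particular to a role is read from their counts.

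Among chromatin complex subunits and corepressors, 13 members were present, with 0 higher and ZNF217 alone lower (median 0.08). ZNF644, a partner of the histone methyltransferases G9a and GLP, was at 8.18 against 15.47 FPKM (-0.84). Its counts of 178 and 469 gave a ratio of -1.36, with listed lengths of 2626 and 3546 bases. ZNF444 and ZNF827 were the highest of the list.

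Proteins that act on RNA, the ribosome or the spindle gave 13 members, of which 2 were higher and 2 lower (median -0.20). The higher pair were ZNF106, an RNA-binding protein gene (18.72 against 7.51 FPKM, 1.21), and ZNF346, which binds double-stranded RNA (13.29 against 5.53, 1.13), both with shared reads. On counts ZNF346 did not pass 2-fold (335.71 against 175.95, 0.97), with listed lengths of 3040 and 3718 bases. The lower pair were ZNF207 and ZNF330. ZNF622, which acts in ribosome assembly, was at 12.86 against 21.45 (-0.70) and ZNF598, a ubiquitin ligase for stalled ribosomes, at 10.02 against 12.97 (-0.34).

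A list of KRAB genes studied for their targets had 13 members, with 4 higher (30.8%) and 0 lower (median 0.20), and 11 of the 13 had shared reads. That share stands beside 25.3% higher among all protein-coding genes with shared reads, so it is not read as particular to the list. The list includes ZNF146, in which no KRAB box was found. The higher ones were ZNF43 (11.85 against 3.23 FPKM, 1.60), ZNF33A (29.25 against 10.56, 1.39), ZNF91, a repressor of SVA retrotransposons (25.39 against 10.10, 1.25), and ZNF445, a keeper of genomic imprints (8 against 3.12, 1.13). ZNF93, which represses LINE-1 elements, was at 6.53 against 5.89 (0.13). ZNF274, which binds the ends of ZNF genes themselves and recruits SETDB1 there, was at 10.25 against 19.87 (-0.89) with whole counts of 230 and 468.

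The corepressor machinery that KRAB proteins use had 28 of 32 listed genes at 5 FPKM or more, with 1 higher (3.57%) and 7 lower (25%), beside 12.0% and 8.41% of all 8804 genes (median -0.27). TRIM28, which the KRAB box binds, was at 113.70 against 120.27 FPKM (-0.08), and SETDB1, its histone methyltransferase partner, at 4.31 against 7.22 (-0.63). The histone deacetylase gene HDAC1 was lower (21.76 against 64.92, -1.53), as were TASOR2 (2.37 against 8.29, -1.46) and the remodeller gene SMARCAD1 (2.58 against 7.37, -1.23). These 3 had no shared reads. PPHLN1, of the HUSH silencing complex, was also lower (10.83 against 23.84, -1.07, shared reads). The remaining lower genes were SUMO3, SUMO2 and HNRNPK. Of the 28 genes, 18 had ratios below 0 and 10 above it. MPHOSPH8, another HUSH subunit gene, was higher (51.95 against 15.26, 1.70) and had shared reads. Values of TRIM28, SETDB1 and PPHLN1 are named for their role, chosen after they were seen.

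Other zinc finger families were read in the same way. Of 4 ZKSCAN genes, 3 were higher, and those were the 3 with shared reads: ZKSCAN3 (11.77 against 4.2 FPKM, 1.30), ZKSCAN7 (9.19 against 3.21, 1.28) and ZKSCAN1 (28.74 against 12.89, 1.1). ZKSCAN5, without shared reads, was at 4.04 against 5.88 (-0.45). Of 9 ZFP genes 3 were higher and 1 lower, of 8 ZSCAN genes 1 was higher and 0 lower, and of 16 ZBTB genes 4 were higher and 1 lower. Beside the 12.0% of all 8804 genes that were higher, and 25.3% of those with shared reads, these are small counts from which nothing particular to a family is read. The higher ZFP genes were ZFP42 (12.46 against 2.68, 1.87), ZFP14 (13.67 against 4.29, 1.47) and ZFP82 (24.90 against 9.15, 1.35), all with shared reads, and ZBTB7A (30.42 against 11.15, 1.37) was higher without shared reads. Of 6 Krüppel-like factor genes, 0 had shared reads and KLF6 alone was higher.

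Alu elements are repeats derived from the 7SL RNA gene and are common in transcripts of these genes. Alu-like sequence was found in 83 of the 144 matched members with shared reads and in 5 of the 73 without. In the former, the ratio had a median of 0.37 in 61 with no Alu-like sequence, 0.95 in 58 with up to 5% of the transcript, and 1.45 in 25 with more. The higher calls numbered 19 of 61 (31.1%), 27 of 58 (46.6%) and 17 of 25 (68%). The other protein-coding genes with shared reads had medians of -0.01 (1493 genes), 0.39 (1130) and 1.08 (516) in the same classes. Of those other genes, 15.5%, 23.0% and 53.3% were higher. The members' medians were higher in each class, but the genes compared were not matched for level. With shared reads, the median control level was 5.27 FPKM for members, near the 5 FPKM limit, and 11.12 for the other genes. The part of the choice by level in this gap was not tested. Spearman's rho between the ratio and the Alu-like share was 0.42 across 144 members with shared reads and 0.38 across 3139 other such genes. Without shared reads it was 0.06 across 73 members and -0.03 across 5365 other genes. Members share libraries and ancestry and are not independent replicates. Only 1 matched transcript per gene was searched, and its length can differ from the listed length. ZNF805, with no Alu-like sequence found, was matched to 1884 bases against listed lengths of 10075 and 10043. ZNF471, in the same class, was matched to 6287 bases against 6162. The class with no Alu-like sequence therefore does not show that a gene lacks it. The part of Alu-like sequence in the ratios was not tested.

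**Figure D4:**
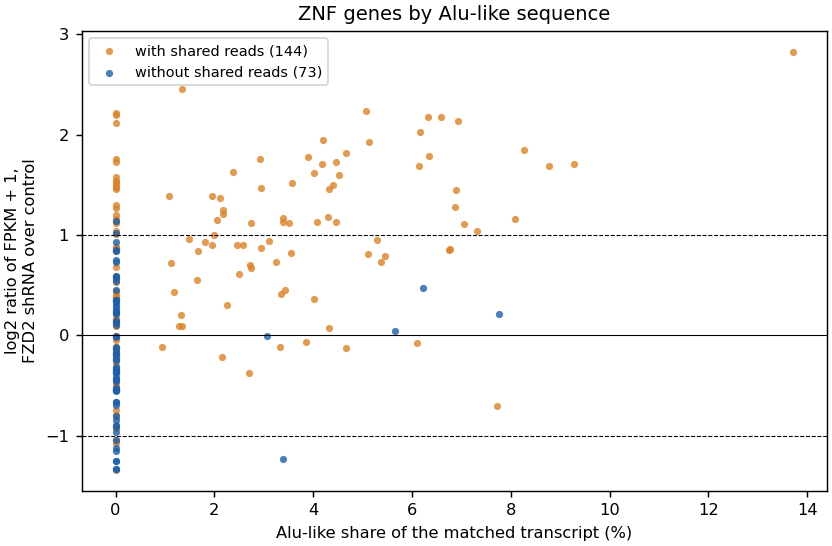
Log2 ratio of FPKM + 1 (y axis) against the Alu-like share of the matched transcript in percent (x axis) for 144 ZNF genes with shared reads and 73 without. Genes with over 5% Alu-like sequence and shared reads have a median ratio of 1.45.

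Likeness to other genes was also measured over 50 bases. A median of 3.27% of the 50-base words of a transcript was also found in a transcript of another gene, on either strand, for members with shared reads, and 0% for those without. Across the 144 members with shared reads, Spearman's rho between this share and the log2 ratio was 0.06. GC content was related to the ratio in members without shared reads, with a rho of 0.50 across 73 genes and 0.40 across 5365 other protein-coding genes of that kind. With these 73 ordered by GC, the 25 from 36.5% to 47.9% had a median ratio of -0.67 with 7 lower (28%). The 25 from 61.1% to 70.8% had a median of 0.24 with 0 lower. Over all 5481 protein-coding genes without shared reads 10.7% were lower. That share was not split by GC content, so nothing particular to the members is read from these counts. Members with shared reads showed a rho of 0.08 with GC content. The part of GC content was not tested.

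Neighbours were taken from the order of protein-coding genes in RefSeq (GRCh38.p14), a run being at least 2 adjacent ZNF, ZFP, ZSCAN or ZKSCAN genes. Of the 147 members in runs, 54 (36.7%) were higher and 5 (3.40%) lower (median 0.73). Of the 73 members outside runs, 14 (19.2%) were higher and 6 (8.22%) lower (median 0.08). Over all 8804 genes 12.0% were higher and 8.41% lower, and over those with shared reads 25.3% and 4.54%. With shared reads, the medians were 0.91 for 117 members in runs and 0.72 for 30 outside them. Without shared reads, they were -0.06 for 30 members in runs and -0.33 for 43 outside them.

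The run from ZNF737 to ZNF681 held 13 members, 8 of them higher (61.5%), with a median of 1.15. They ranged from -0.92 (ZNF85) to 2.22 (ZNF724, from 36.28 and 4.40 expected counts), and 10 of the 13 had Alu-like sequence. All 13 had shared reads, and 25.3% of all protein-coding genes with shared reads were higher. The median level of the 13 was 8.31 FPKM with the FZD2 shRNA and 4.32 in the control. Most of them therefore entered at the 5 FPKM limit through the FZD2 shRNA library alone. The part of that choice in the run's count and median was not tested. In the run from ZNF565 to ZNF793, 8 of 16 members (50%) were higher, and the median control level, 4.76 FPKM, was also under the limit. ZNF146 was the lowest there at 17.80 against 34.32 FPKM (-0.91), and it was the member of that run without shared reads, while ZNF793 was the highest at 42.31 against 8.83 (2.14). In the run from ZNF283 to ZNF180, 0 of 6 members were higher and 1 lower (median -0.34). Its members were ZNF45, ZNF226 (12.48 against 17.70, -0.47), ZNF227 (4.58 against 6.57, -0.44), ZNF155 (4.15 against 5.11, -0.25), ZNF224 (6.57 against 7.73, -0.21) and ZNF234 (7.37 against 3.68, 0.84). All 6 match the KRAB profile, 4 of the 6 had shared reads and 1, ZNF234, had Alu-like sequence.

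**Figure D5:**
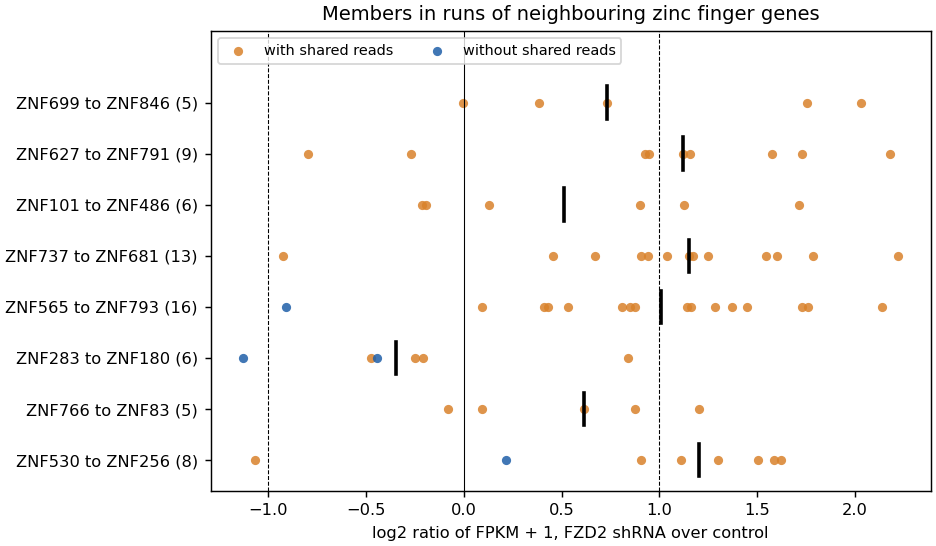
Log2 ratio of FPKM + 1 (x axis) of the ZNF genes in each of the 8 runs of neighbouring zinc finger genes that hold at least 5 members, with the run's first and last gene and its number of members on the y axis and the median as a black bar. The run from ZNF283 to ZNF180 has a median of -0.34, and the other 7 have medians from 0.51 to 1.20.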

How the data were processed

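Messenger RNA was taken by its poly(A) tail, per the labels' protocols, then fragmented and reverse transcribed with random primers. Bowtie2, HISAT and hg19 are named in the submitters' processing notes. The sources used here do not give the counting program, the annotation or whether strand was used. Per the file headers, the authors deposited an expected count (estimated reads, not normalized), an FPKM value and a length per gene. Unlisted genes were set to 0.

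Symbols came from RefSeq (GRCh38.p14) by gene identifier, and 87 listed genes had none. The measure was the log2 ratio of FPKM + 1. With 1 library per group no test was possible. Counting intervals (95%) are exact conditional binomial on expected counts rounded to whole numbers, cover counting error only and treat reads as independent. A count of 0 allows up to 3 reads, 3.64e-05% and 3.56e-05% of the libraries.

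Transcript features used GENCODE release 29 transcripts matched by RefSeq accession (217 of 220 members, 99.1% of protein-coding genes at 5 FPKM). Fingers were C-(2 to 4)-C-12-H-(3 to 5)-H spacings in the translated longest coding part. KRAB and SCAN calls used profiles built with pyhmmer 0.12.3 from 101 and 9 seed genes (E-value at most 0.001), which can miss divergent domains. They were planned on RefSeq proteins, which were not used here. For Alu-like sequence, RN7SL1 was searched against the transcripts (blastn 2.17.0, words of 11 bases, E-value limit 1e-05).

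Named genes were the 8 highest and 8 lowest members without shared reads and the 6 highest and 6 lowest with them (at least 50 counts), the 6 most abundant, up to 4 per list, and 4 on each side of the limit. Any further gene was picked with its values in view. The prostate marker check is not reported here. The members, lists and tests were chosen with earlier results of these data known. Size and interval rules were run on simulated whole counts with counting error only. That simulation had no variation between libraries and no shared reads, so it cannot judge errors from either. Alternatives were 14 planned settings and 2 added later. Tools were Python 3.11.15, NumPy 2.4.6, pandas 2.3.3, SciPy 1.17.1, matplotlib 3.10.9 and, for TMM factors, edgeR 4.0.16.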

Additional observations from a re-analysis of the deposited data

How the results depend on the processing

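No paired analysis was possible because each group held 1 library. No replicate was left out for the same reason. The reads shared between genes, the choice at 5 FPKM and the 1 library per group limit every count above.

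Main counts were 68 higher and 11 lower for all members, 66 and 3 with shared reads, 2 and 8 without, and 56 and 5 for KRAB members, with a median of 0.45. A pseudocount of 5 FPKM gave 33 and 1, 32 and 0, 1 and 1, and 28 and 0, with a median of 0.28. A limit of 4-fold gave 10 and 0, 10 and 0, 0 and 0, and 10 and 0. A limit of 1.5-fold gave 102 and 24, 94 and 8, 8 and 16, and 80 and 10. Counting intervals that exclude equality gave 124 and 47, 107 and 12, 17 and 35, and 90 and 16.

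Among genes at 1 FPKM or more, 75 of 428 were higher and 18 lower in all, and 73 and 6 with shared reads (median 0.094). With no filter, 75 of 485 were higher and 18 lower in all, and 73 and 6 with shared reads (median 0.00). At 10 FPKM or more, 46 of 104 were higher and 4 lower in all (median 0.86). The counts were 44 and 0 with shared reads, 2 and 4 without, and 38 and 0 for KRAB members. A mean of at least 5 FPKM gave 56 of 180 higher and 6 lower in all, 54 and 0 with shared reads, and 46 and 0 for KRAB members. KRAB counts under the looser filters were not run, since domains were called for genes at 5 FPKM or more. TPM, in which the median of all measured genes was 0.14, gave a median of 0.62. It gave 89 higher and 10 lower members in all, 84 and 3 with shared reads, and 5 and 7 without.

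With both libraries at 5 FPKM or more, there were 28 and 4 in all, 26 and 0 with shared reads, 4 lower without, and 23 and 0 KRAB members (median 0.24). In members with no Alu-like sequence found, the median turned to -0.0073, with 21 higher in all, 19 with shared reads and 17 KRAB members. Both settings were chosen after seeing the data and test fewer genes. Of 45 named members, 37 changed side of the limit under at least 1 setting, among them 15 that fell short with a pseudocount of 5 FPKM, 20 that fell short of 4-fold and 17 that passed by the counting interval.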

Other observations

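A set of 13 members had shared reads although their matched transcript held no Alu-like sequence and no 50-base word of another gene. Of these, 4 were at least 2-fold higher and 0 lower, with a median log2 ratio of 0.59. The 4 of 13 (30.8%) stand beside 25.3% higher among all protein-coding genes with shared reads, so the count is not read as particular to them. ZNF124 (91.44 FPKM in the FZD2 shRNA library against 20.24 in the control) was the highest of them, followed by ZNF865 (22.78 against 7.24) and ZNF34 (19.02 against 6.16). The matched transcript is a single form of each gene, and its other forms were not searched. For some of the 13 it was much shorter than the listed lengths, as in ZNF326 (2729 bases against 9535 and 9458) and ZNF124 (1292 against 2281 and 2244). For others it was close, as in ZNF875 (2929 against 2859 and 2843). Sequence outside the matched form was therefore not covered. In the other direction, 36 of the 73 members without shared reads held at least 1 such word, and 1 of the 36 was higher and 3 were lower (median -0.34).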
